A study of Homo sapiens with 8 samples.

Results

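NF-κB is a family of dimeric transcription factors that turn on inflammatory and survival genes. Its subunits are made from NFKB1 (p105, cut to p50), NFKB2 (p100, cut to p52), RELA (p65), REL (c-Rel) and RELB. In resting cells the dimers are held in the cytoplasm by inhibitors of the IκB family. Receptors for TNF, IL-1 and IL-17 activate IκB kinases, which mark IκB for destruction and free the dimers. In keratinocytes this pathway drives the chemokines and antimicrobial peptides of inflamed skin. The transcripts described here were those of 10 genes chosen by name from 17131 genes in the table, namely the 5 subunits, the 3 cytoplasmic inhibitors NFKBIA (IκBα), NFKBIB (IκBβ) and NFKBIE (IκBε), and the 2 nuclear IκB proteins NFKBIZ (IκBζ) and BCL3. All 10 had enough reads to be tested, so none was lost to the filter on low counts.

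RNA was sequenced from HaCaT, a line of human keratinocytes with a wild type genotype, in 8 libraries titled M5_O5 and M5, with 4 of each. M5 mixes 5 cytokines (TNF-α, IL-1α, oncostatin M, IL-17A and IL-22), each at 10 ng/mL for 24 h, and serves as a culture model of psoriatic keratinocytes. OTS514, which blocks the kinase TOPK, was given at 10 nM from 12 h before the cytokines. By their titles the M5_O5 libraries would be those with OTS514, but their treatment field says that there was none, and the same field names a TOPK inhibitor for the M5 libraries. Each direction below is therefore stated between titles, as M5_O5 relative to M5, and which group received the inhibitor cannot be settled from the labels. No library without cytokines was analysed here, so the values show differences within cytokine-treated cells and not induction by the cytokines.

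Total read counts ranged from 13708055 in M5 replicate 1 to 16922693 in M5_O5 replicate 2. M5 replicate 1 also differed most from the other libraries of its title, with 10.35 to 16.5 as the mean chi-square per gene. The other M5 libraries had 2.03 to 4.06 among themselves. M5_O5 replicate 1 had 7.115 to 11.1 against the other M5_O5 libraries, which had 3.053 to 7.146 among themselves. RELA, REL, NFKB2, RELB and BCL3 are therefore also given without M5 replicate 1 and, separately, without M5_O5 replicate 1. All 12 keratinocyte markers examined were present in every library. Leukocyte markers were mixed: PTPRC, the defining leukocyte gene, had 0 reads in all 8, but CD14 had 482 to 615 and CD68 747 to 1327 reads per library. The sum of the 12 keratinocyte markers was lower in M5_O5 (19100 to 21660 CPM) than in M5 (22780 to 26080 CPM), where CPM is the read count of a gene scaled to library size with TMM factors. Of these 12 markers, 7 were lower and 0 higher at an adjusted p under 0.05 (58.3% and 0%, against 17.6% and 19.5% of all genes tested). Of 10 markers of other cell types 3 reached the tested range, of which 2 (CD68 and COL1A1) were lower. The summed level of the 10 was 111.7 to 133.2 CPM in M5_O5 and 135.6 to 181.8 CPM in M5. These marker shifts moved with the members described below, and their part in the results was not tested. In bulk RNA, fewer cells of a type and less RNA per cell cannot be told apart.

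Genes of this family are textbook targets of NF-κB itself, so the promoters of the members were searched for the κB consensus motif, a pattern of 10 bases. RefSeq windows of 300 bases on GRCh38.p14 (250 before to 50 after an annotated start) were found for 8 members, in 14 windows, and RELB and NFKBIE had no entry. At least 1 match lay in the windows of 7 of these 8 members, and 9 of the 14 windows held one. For comparison, 5.91% of all 35116 windows and 7.09% of the 27305 genes with a window held a match. Matches were sought on both strands, and overlapping ones were merged. The match closest to a start is shown for each of the 7 members because these stretches let the elements be compared letter by letter. They are printed 5′ to 3′ on the strand of the gene with the matched bases in capitals. NFKB1 (chr4:102501300-102501329, plus strand, 49 bases before the start), NFKB2 (chr10:102395674-102395703, plus strand, 21 before) and REL (chr2:60881518-60881547, plus strand, 47 before) are the subunit genes. NFKBIA (chr14:35404811-35404840, minus strand, 81 before) and NFKBIB (chr19:38899932-38899961, plus strand, 28 before) are the cytoplasmic inhibitors. NFKBIZ (chr3:101849265-101849294 and, for another start, chr3:101827757-101827786, plus strand) carried matches 239 and 223 bases before its starts, of which the second is shown. In BCL3 (chr19:44748700-44748729, plus strand) the match began 2 bases after the start.
NFKB1: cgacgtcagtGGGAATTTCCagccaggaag
NFKB2: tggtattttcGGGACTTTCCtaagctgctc
REL: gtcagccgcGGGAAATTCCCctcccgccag
NFKBIA: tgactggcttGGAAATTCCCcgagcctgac
NFKBIB: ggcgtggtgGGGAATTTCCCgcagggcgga
NFKBIZ: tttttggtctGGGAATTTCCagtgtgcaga
BCL3: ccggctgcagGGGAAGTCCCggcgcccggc

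The NFKBIA and BCL3 matches were read on the opposite strand, while those of REL and NFKBIB were read on both strands. NFKB2 had 3 annotated starts and further matches 78, 107 and 176 bases before a start. RELA had 2 annotated starts and no match in either window. A match describes letters in these windows only, and members with a match were found both among those that changed and among those that did not.

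The question put to the members was whether their transcript levels differed between M5_O5 and M5. Of the 10, 7 were lower in M5_O5 at an adjusted p under 0.05 (NFKB1, NFKB2, REL, RELA, RELB, NFKBIA and BCL3) and 0 were higher, while NFKBIB, NFKBIE and NFKBIZ did not pass. Of the 12434 genes tested, 17.6% were lower and 19.5% higher by the same test (37.1% in either direction), so 70% of members against 17.6% of genes were lower. Every difference was small: the median log2 fold change of the members was -0.21 against 0.01 for all genes, and none reached 2-fold (2.87% of all genes were 2-fold higher and 0.33% 2-fold lower). In 4 members (NFKB1, REL, RELA and NFKBIA) all M5_O5 libraries lay below all M5 libraries. That is 40% of the members, near the 33.6% of all genes whose groups did not overlap in either direction. Among the 7417 genes expressed within the range of the members, from 12.5 to 240.7 mean CPM, 22.2% were lower and 16% higher, with a median of -0.03. The count depended on how libraries were scaled. With scaling to library size alone the median of all genes moved to 0.13, the split of all called genes from 2420 higher and 2192 lower to 3858 higher and 1008 lower, and the members called lower from 7 to 3 (REL, RELA and NFKBIA). Only RELA and NFKBIA were called lower in all 19 alternative settings that kept the adjusted p threshold. Relative to the median of all genes in the same setting, RELA ranged from -0.53 to -0.30, NFKBIA from -0.36 to -0.18 and NFKBIZ from -0.05 to 0.11.

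**Figure D1:**
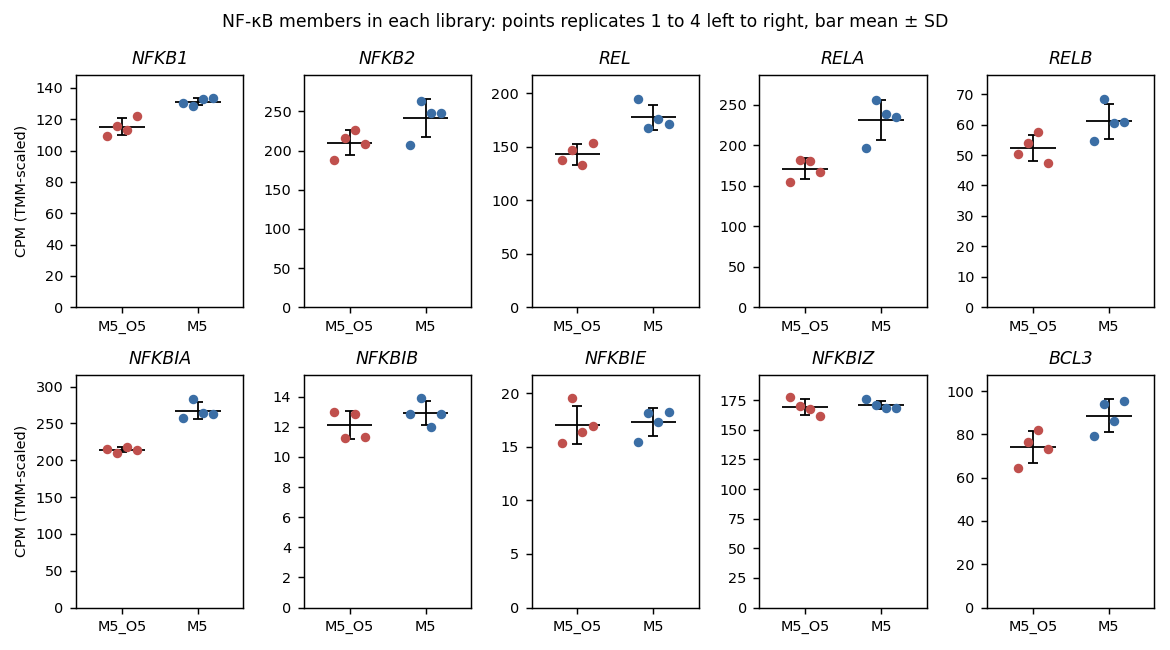
Level of each of the 10 genes in CPM (TMM-scaled, linear axis from 0), with a point for each library (replicates 1 to 4 from left to right, M5_O5 red and M5 blue) and a bar for the mean ± SD. NFKB1, REL, RELA and NFKBIA have no overlap between titles, and NFKBIZ lies at 161.4 to 177.7 CPM in M5_O5 and 168.5 to 176 CPM in M5.

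The 5 subunit genes were all lower in M5_O5, and RELA fell most. RELA encodes p65, the subunit with a transactivation domain that pairs with p50 in the most common dimer. Its level was 155.3, 181.4, 181.3 and 167.4 CPM in M5_O5 replicates 1 to 4 and 196.6, 255.7, 238.3 and 235.4 CPM in M5 replicates 1 to 4. Every M5_O5 library was below every M5 library, and the closest M5 library was replicate 1. The means were 171 ± 12.6 CPM (SD, n = 4) in M5_O5 and 231.5 ± 24.96 CPM (SD, n = 4) in M5. The log2 fold change was -0.43 (SE 0.08, 95% interval -0.60 to -0.27, adjusted p = 0.000656 in edgeR's quasi-likelihood test), which is 1.35-fold lower. An exact permutation test of the CPM values, two-sided, gave p = 0.0286, the smallest that 4 against 4 libraries allow. Without M5 replicate 1 the log2 fold change was -0.51, and without M5_O5 replicate 1 it was -0.39 (edgeR adjusted p = 0.00209). The range over all alternatives was -0.51 to -0.30. By size of change RELA stood at rank 2122 of the 12434 genes.

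REL encodes c-Rel, a subunit best known from lymphocytes. REL had 137.6, 146.8, 132.6 and 153.7 CPM in the M5_O5 libraries and 194.4, 167.8, 176.1 and 170.7 CPM in the M5 libraries. The groups did not overlap, and here M5 replicate 1 was the highest library, unlike in RELA where it was the lowest of its title. Means were 143 ± 9.43 and 177 ± 11.9 CPM (SD, n = 4 each). REL fell by 0.31 on the log2 scale (SE 0.06, 95% interval -0.45 to -0.18, edgeR adjusted p = 0.00167, two-sided exact permutation p = 0.0286). Without M5 replicate 1 it was -0.27 and without M5_O5 replicate 1 it was -0.30, both still past the threshold. Of the 19 alternatives, 17 kept the call.

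NFKB1 encodes p105, which is both the precursor of p50 and an IκB-like inhibitor in its uncut form. Its M5_O5 libraries held 109.4, 115.8, 113.3 and 122.2 CPM, and its M5 libraries 130.4, 128.3, 132.6 and 133.8 CPM. The M5 libraries lay close together and above every M5_O5 library, with means of 131 ± 2.43 and 115 ± 5.39 CPM (SD, n = 4 each). The fall was 0.19 on the log2 scale (SE 0.05, 95% interval -0.30 to -0.08, edgeR adjusted p = 0.0109, two-sided exact permutation p = 0.0286). NFKB1 kept its call in 14 of 19 alternatives and lost it, among others, when the libraries were scaled to library size alone (-0.073, edgeR adjusted p up to 0.289 over the alternatives).

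NFKB2 and RELB make the pair of the noncanonical arm, p52 and RelB. NFKB2 had 188.1, 216.6, 225.7 and 208.9 CPM in M5_O5 and 207.1, 263.8, 248.5 and 248.1 CPM in M5. Its groups overlapped because M5 replicate 1 lay below 3 of the M5_O5 libraries. The log2 fold change was -0.21 (SE 0.08, 95% interval -0.37 to -0.04, edgeR adjusted p = 0.0454, two-sided exact permutation p = 0.114). Without M5 replicate 1 it was -0.27 (edgeR adjusted p = 0.00207), and without M5_O5 replicate 1 it was -0.16 (edgeR adjusted p = 0.118). RELB had 50.34, 53.88, 57.49 and 47.54 CPM in M5_O5 and 54.6, 68.44, 60.41 and 60.8 CPM in M5. Again M5 replicate 1 was the lowest of its title and lay inside the M5_O5 range. Its log2 fold change was -0.22 (SE 0.08, 95% interval -0.39 to -0.06, edgeR adjusted p = 0.0335, two-sided exact permutation p = 0.0571). Without M5 replicate 1 it was -0.27 (edgeR adjusted p = 0.0063), and without M5_O5 replicate 1 it was -0.21 (edgeR adjusted p = 0.0688). Both calls were close to the threshold. NFKB2 kept its call in 6 and RELB in 8 of 19 alternatives, and both lost it when any of M5_O5 replicates 1, 2 or 4 or M5 replicates 2, 3 or 4 was left out.

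Among the cytoplasmic inhibitors, NFKBIA fell and the other two did not pass. NFKBIA encodes IκBα, the inhibitor that NF-κB resynthesises to end its own response. NFKBIA had 216, 209.5, 217.7 and 213.7 CPM in M5_O5 and 257.6, 283.6, 264.7 and 262.5 CPM in M5. The highest M5_O5 library, at 217.7 CPM, lay well below the lowest M5 library, and the M5_O5 libraries stood close together. Means were 214 ± 3.55 and 267 ± 11.4 CPM (SD, n = 4 each). This gave a log2 fold change of -0.32 (SE 0.05, 95% interval -0.43 to -0.21, edgeR adjusted p = 0.000281, two-sided exact permutation p = 0.0286). NFKBIA had the smallest adjusted p of the 10 members, and it kept its call in all 19 alternatives, over which the log2 fold change ranged from -0.34 to -0.19.

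NFKBIB and NFKBIE encode IκBβ and IκBε, inhibitors with slower turnover and a smaller role than IκBα in most cells. NFKBIB lay at 11.26 to 12.96 CPM in M5_O5 and 11.98 to 13.91 CPM in M5, and NFKBIE at 15.35 to 19.53 and 15.48 to 18.25 CPM. The groups of both genes overlapped broadly. The log2 fold changes were -0.09 for NFKBIB (95% interval -0.28 to 0.10, edgeR adjusted p = 0.452) and -0.02 for NFKBIE (95% interval -0.22 to 0.17, edgeR adjusted p = 0.871), and these intervals do not exclude a fall of the size seen in NFKB1. NFKBIB is the least certain of the 10, since its transcripts were listed at 2 placements. Leaving out the 4 rows marked as further placements turned its log2 fold change to 0.57 (edgeR adjusted p = 0.205), an alternative chosen after seeing the data.

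The nuclear IκB proteins act on chromatin with p50 or p52 homodimers, and they differed from each other. NFKBIZ encodes IκBζ, a coactivator strongly tied to IL-17 responses in keratinocytes. NFKBIZ had 177.7, 170.4, 167.7 and 161.4 CPM in M5_O5 and 176, 170.5, 168.6 and 168.5 CPM in M5. The M5 libraries lay inside the range of the M5_O5 libraries, and the mean was 169 ± 6.75 CPM in M5_O5 and 171 ± 3.51 CPM in M5 (SD, n = 4 each). Its log2 fold change was -0.01 (SE 0.05, 95% interval -0.12 to 0.09, edgeR adjusted p = 0.856). The sign turned with the scaling. Values just past the upper end of that interval were seen with library size alone (0.102), the expression level trend removed (0.105) and limma on TPM (0.109 and 0.111). None of these passed the threshold. BCL3 encodes an IκB-like coregulator that binds p50 and p52. It had 64.58, 76.68, 82.08 and 73.39 CPM in M5_O5 and 79.05, 94.04, 86.01 and 95.19 CPM in M5. One pair of libraries crossed, M5_O5 replicate 3 lying above M5 replicate 1. BCL3 fell by 0.26 on the log2 scale (SE 0.08, 95% interval -0.42 to -0.09, edgeR adjusted p = 0.0188, two-sided exact permutation p = 0.0571). Without M5 replicate 1 it was -0.31, and without M5_O5 replicate 1 it was -0.20 (edgeR adjusted p = 0.0482). The call was kept in 12 of 19 alternatives and lost, among others, without M5 replicate 2 or M5 replicate 4. The difference between the changes of NFKBIZ and BCL3 was not tested.

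**Figure D2:**
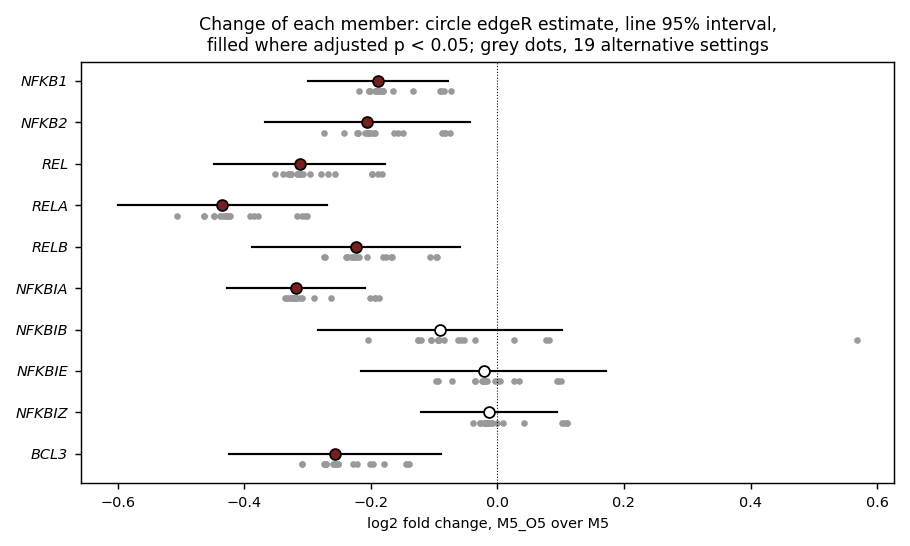
Log2 fold change of each of the 10 genes, M5_O5 over M5, as a circle with its 95% interval (filled where the edgeR adjusted p is under 0.05) and, as grey dots, the values under the 19 alternative settings. RELA lies lowest at -0.43, NFKBIZ at -0.01, and a single setting moves NFKBIB to 0.57.

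Levels can be compared between genes only per length, for which deposited TPM, a unit that corrects for transcript length, was summed per gene. NFKBIA was the most abundant transcript of the family at 282.4 ± 11.96 TPM in M5_O5 and 322.9 ± 13.5 TPM in M5 (SD, n = 4 each). RELA (128.2 and 158.3 TPM) and NFKB2 (123.4 and 130.6 TPM) came next, and these overlapped in M5_O5 but not in M5. Below them stood BCL3 (73.02 and 80.57 TPM) and NFKBIZ (76.86 and 71.25 TPM), which overlapped in both groups. The order went on with NFKB1 (52.25 and 55.68 TPM), RELB (44.39 and 47.43 TPM) and REL (21.66 and 24.82 TPM), whose ranges were separate from their neighbours in both groups. NFKBIB (15.35 and 14.51 TPM) and NFKBIE (13.74 and 12.78 TPM) were lowest and could not be ordered. REL drew more reads than NFKB1 in CPM (143 and 115 in M5_O5) but stood well below it per length.

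The make-up of the subunit pool shifted slightly. RELA took 34.0, 35.45, 34.9 and 34.2% of the summed TPM of the 5 subunits in M5_O5 replicates 1 to 4 and 36.4, 38.96, 38.4 and 38.1% in M5 replicates 1 to 4. Every M5_O5 share was below every M5 share, with means of 34.7 ± 0.655% and 38.0 ± 1.09% (SD, n = 4 each). The share of NFKB2 went the other way, from 31.3 ± 0.682% in M5 to 33.3 ± 0.769% in M5_O5, again with no overlap. Its level was not higher in M5_O5 (123.4 TPM, and 130.6 TPM in M5), nor was that of RELB (44.39 and 47.43 TPM). The NFKB2 share rose within a smaller sum of the 5 subunits (369.9 and 416.9 TPM). The shares of NFKB1, REL and RELB overlapped between titles. The ratio of the noncanonical pair (NFKB2 and RELB) to NFKB1, RELA and REL was 0.830 ± 0.0332 in M5_O5 and 0.745 ± 0.0229 in M5 (SD, n = 4 each), with ranges of 0.804 to 0.878 and 0.718 to 0.773. These shares are descriptions without a test.

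The summed TPM of the subunits and of the cytoplasmic inhibitors was also smaller in M5_O5. The 5 subunits summed to 369.9 ± 10.1 TPM in M5_O5 and 416.9 ± 7.58 TPM in M5, and the 3 cytoplasmic inhibitors to 311.5 ± 12.8 and 350.2 ± 14.8 TPM (SD, n = 4 each). Neither sum overlapped between titles. The fall was not shared by every gene in these sums. NFKBIB (15.35 TPM in M5_O5 and 14.51 TPM in M5) and NFKBIE (13.74 and 12.78 TPM) were not lower. With limma on TPM, only RELA and NFKBIA were called lower. The ratio of inhibitor to subunit transcripts was 0.843 ± 0.0511 in M5_O5 and 0.8405 ± 0.0479 in M5, with ranges that overlapped. NFKBIA made up 90.7 ± 0.328% of the inhibitor pool in M5_O5 and 92.2 ± 0.349% in M5, without overlap. The ratio of NFKBIZ to RELA was 0.601 ± 0.0637 in M5_O5 and 0.452 ± 0.0617 in M5, and its ranges (0.5595 to 0.6954 and 0.4036 to 0.5424) did not overlap. Like the NFKBIA share, this ratio was not among the quantities planned. It sets the member that changed least against the one that fell most, so it restates their levels and adds no further result.

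**Figure D3:**
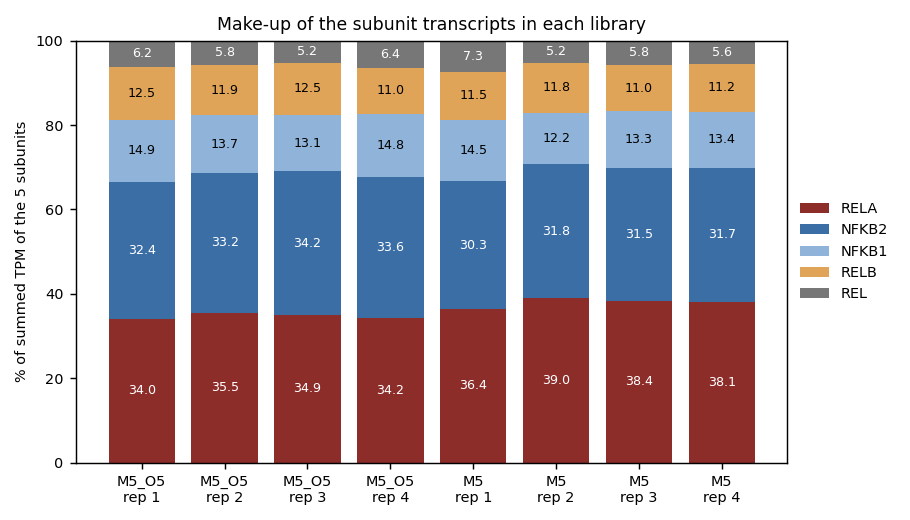
Share of each subunit in the summed TPM of the 5 subunits, as stacked bars to 100% for each of the 8 libraries. The RELA share is 34.0 to 35.5% in the M5_O5 libraries and 36.4 to 39.0% in the M5 libraries, and the NFKB2 share 32.4 to 34.2% and 30.3 to 31.8%.

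The members are listed as 50 transcripts, 40 of which had enough reads for the same test at the transcript level. Of these, 2 were lower in M5_O5 and 0 higher, where 3.06% of 38929 transcripts were called in either direction. The 2 were the main transcripts of the genes with the firmest calls, RELA NM_021975 (log2 fold change -0.42, SE 0.09, edgeR adjusted p = 0.0449) and NFKBIA NM_020529 (-0.29, SE 0.04, edgeR adjusted p = 0.0118). NM_021975 supplied 92.1% of RELA TPM in M5_O5 and 93.35% in M5, and NM_020529 was the only NFKBIA transcript listed. REL was made mostly of NM_001291746, whose log2 fold change was -0.35 with an adjusted p of 0.0503 in edgeR. Its share of REL TPM was 84.5 ± 1.59% in M5_O5 and 88.6 ± 0.992% in M5 (SD, n = 4 each). The other listed transcript of size, NM_002908, took 14.55 ± 1.75% in M5_O5 and 10.1 ± 1.37% in M5, with ranges of 12.09 to 15.9% and 8.84 to 12.04% that did not overlap. Its own log2 fold change of 0.24 did not pass (edgeR adjusted p = 0.51).

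Other members showed no such shift beyond their spread. NFKBIZ was nearly all NM_031419 (98.3 and 98.7% of its TPM) and BCL3 mostly NM_005178 (86.9 and 89.6%). NFKB2 was divided over NM_002502 (43.4 and 42.6%) and NM_001322934 (30.7 and 33.7%). The division of NFKB1 was not stable between replicates: XM_024454068 took 29.3 ± 16.0% in M5_O5 and 44.9 ± 16.5% in M5 (SD, n = 4 each). Estimated counts share reads between overlapping transcripts, so the gene totals are the firmer values.

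The genes around the members in the pathway were counted in 7 lists of 98 genes. Of the 93 that could be tested, 26 were lower and 11 higher in M5_O5 (28% and 11.8%, against 17.6% and 19.5% of all genes), with a median log2 fold change of -0.10. With library size scaling alone these counts turned to 12 lower and 17 higher. Among 12 genes of the IκB kinase complex and its upstream kinases, 3 were lower and 0 higher (25% and 0%, median -0.12). These shares compare with 22.2% lower and 16% higher among genes within the members' range of expression. The lower kinases were IKBKB, the catalytic subunit IKKβ (-0.18, edgeR adjusted p = 0.0267), MAP3K8, the kinase TPL2 held by p105 (-0.20, edgeR adjusted p = 0.0181), and MAP3K7, the kinase TAK1 (-0.16, edgeR adjusted p = 0.0369). Of 19 alternatives, IKBKB lost its call in 8, MAP3K8 in 7 and MAP3K7 in 11, and MAP3K7 changed sign in a further 2. Among 17 receptor adapters and ubiquitin ligases, 5 were lower and 1 higher (29.4% and 5.88%, median -0.11). TRAF6, the ligase used by IL-1 and IL-17 receptors, fell by 0.34 on the log2 scale (edgeR adjusted p = 0.00309), and RIPK1, the kinase of the TNF receptor complex, by 0.29 (edgeR adjusted p = 0.00145). TRAF5 was higher (0.78, edgeR adjusted p = 0.0117) but had only 16 to 49 reads per library.

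In the machinery that destroys IκB, BTRC was the lowest relative to M5. BTRC encodes β-TrCP, the F-box protein that recognises phosphorylated IκB, and had 55.8 to 65.19 CPM in M5_O5 and 75.26 to 85.55 CPM in M5. It fell by 0.41 on the log2 scale (SE 0.07, edgeR adjusted p = 0.000279) and kept the call in all 19 alternatives. The ubiquitin-conjugating enzymes UBE2D1 (-0.35, edgeR adjusted p = 0.00476) and UBE2D3 (-0.29, edgeR adjusted p = 0.000978) were lower as well. In all, 3 of the 10 genes of IκB degradation were lower and 1 higher (30% and 10%, median -0.15). By comparison, 17.6% of all genes were lower and 19.5% higher, and 22.2% and 16% of genes within the members' range of expression. Whether these short lists differ from those shares was not tested. Of 13 brakes on the pathway, 4 were lower and 0 higher (30.8% and 0%, median -0.09). These included TNFAIP3, the deubiquitinase A20 that NF-κB induces (-0.18, edgeR adjusted p = 0.03), OTULIN (-0.20, edgeR adjusted p = 0.0231) and ITCH, a ubiquitin ligase that works with A20 (-0.34, edgeR adjusted p = 0.000347). TNFAIP3 lost its call in 11 of 19 alternatives (nearest to 0 at -0.0086 with the expression level trend removed), OTULIN in 7 and ITCH in 2. Of 9 nuclear cofactors, 1 was lower (11.1%), the acetyltransferase EP300 (-0.18, edgeR adjusted p = 0.0354), and 0 were higher. EP300 lost its call in 10 of 19 alternatives, over which it ranged from -0.21 to -0.06. Those lists hold called genes outside the naming rule, and these were named after their values were seen: TRAF3, UBE2V1 and RNF31 among the lower adapters and ligases, NKIRAS2 among the lower brakes, and UBE2M as the higher gene of IκB degradation.

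Target genes did not move together. Of 29 well-known NF-κB targets 25 could be tested, and 9 were higher and 6 lower in M5_O5, with a median log2 fold change of -0.01. These are 36% and 24% of the tested targets, against 19.5% and 17.6% of all genes. Among all genes, 357 were 2-fold higher and 41 were 2-fold lower, so most changes of that size were upward. All 6 targets that passed 2-fold were higher and encode secreted inflammatory factors. They included CXCL2 (2.33, edgeR adjusted p = 5.47e-05, on only 3 to 52 reads per library and with reads that may be shared with CXCL1 and CXCL3), CCL2 (1.76, edgeR adjusted p = 2.24e-06) and IL6 (1.62, edgeR adjusted p = 9.76e-07). IL6 rose from 8.035 ± 1.81 CPM in M5 to 24.6 ± 2.55 CPM in M5_O5 (SD, n = 4 each). TRAF1, chosen after its values were seen as the target that fell most, had a log2 fold change of -0.77 (edgeR adjusted p = 0.00054). Any gene higher in M5_O5 is higher in the libraries with fewer RELA, REL and NFKB1 transcripts, and a link between these subunits and the targets was not tested.

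Of 8 epidermal genes known to depend on IκBζ, 7 could be tested, and 4 were lower and 0 higher in M5_O5 (median -0.40). That is 57.1% lower, against 17.6% of all genes and 58.3% of the keratinocyte markers, so the fall was not particular to this list. NFKBIZ itself stayed at 161.4 to 177.7 CPM, and a link between its level and these genes was not tested. The lower genes were IL23A, a subunit of IL-23 (-0.84, edgeR adjusted p = 0.00213, 26 to 62 reads per library), the β-defensin DEFB4A (-0.44, edgeR adjusted p = 0.00106), the calgranulin S100A8 (-0.40, edgeR adjusted p = 0.00122) and, outside the naming rule, S100A7 (-0.58, edgeR adjusted p = 0.00391). DEFB4A has a near-identical copy and S100A7 close relatives, so their counts may include reads of those genes. LCN2, S100A9 and IL36G, also of this list and named to complete it, did not pass (-0.19, -0.13 and 0.0047).

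**Figure D4:**
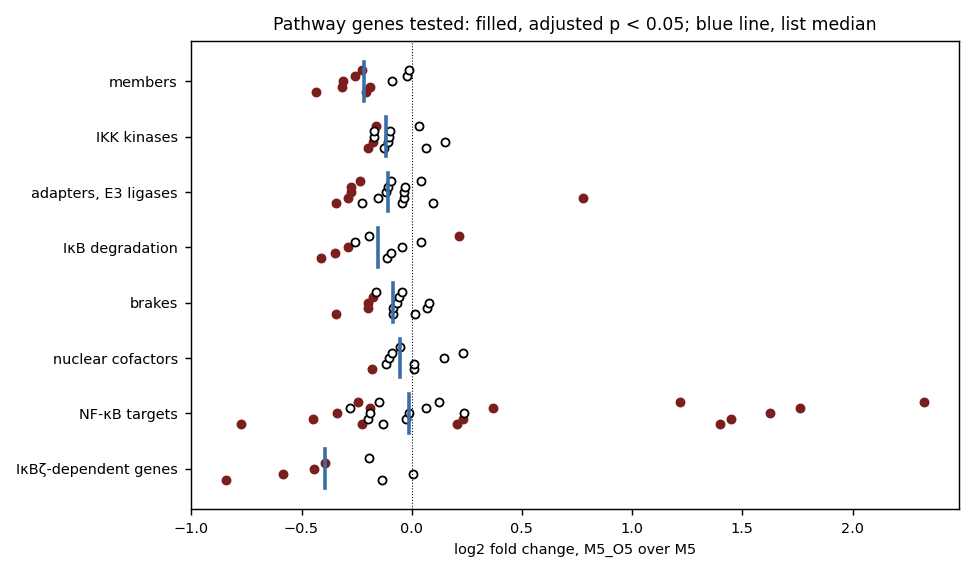
Log2 fold change, M5_O5 over M5, of each tested gene of the 10 members and of the 7 pathway lists, with filled points at an edgeR adjusted p under 0.05 and a blue line at the list median. The members' median is -0.21, that of the IκBζ-dependent genes -0.40, and 6 target genes lie above 1.

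PBK, the gene of the kinase TOPK, was measured at 2.25 to 3.60 CPM in M5_O5 and 0.588 to 2.63 CPM in M5, with M5 replicate 1 inside the M5_O5 range. Its log2 fold change was 1.32 (SE 0.34, edgeR adjusted p = 0.00738) on 9 to 62 reads per library. Without M5 replicate 1 it was 1.98 (edgeR adjusted p = 1.87e-05). OTS514 acts on the kinase protein, so this transcript level does not check which group received it.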

How the data were processed

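HaCaT keratinocyte RNA was measured in 8 libraries, grouped by title (M5_O5 or M5, 4 each). The authors filtered the reads and mapped them with HISAT2, and counted them with StringTie per the methods of the study. The submitters' processing notes name HISAT2 2.1.0, Bowtie2 2.2.5, RSEM 1.2.8 and the mouse build mm10, although the identifiers in the table are human RefSeq transcripts. The human build and the strand setting of the counting are not given in the sources used here. The authors deposited, for 86639 transcripts, an estimated count, TPM and FPKM per library, and 53.8% of the count values were fractional. FPKM was not used.

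Estimated counts were summed per gene (17131 genes, 59 of them without a symbol) and rounded. The 12434 genes passing edgeR's default expression filter were fitted with edgeR 4.0.16 (R 4.3.3, TMM, quasi-likelihood test, both groups, no covariate), with Benjamini-Hochberg adjustment over all of them. The biological coefficient of variation was 7.42%. The threshold for a call was an adjusted p under 0.05. CPM values of single genes were compared by two-sided exact permutation tests. TPM was summed per gene for levels and shares. Depth was 13708055 to 16922693 counts per library, and the member with the fewest reads, NFKBIB, had 176 in its lowest library.

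Nothing in the labels says that the replicates were separate cultures, so p-values measure only the spread between these libraries, which may be technical. Replicates of a title differed by more than sampling noise and were all counted. The members and the gene lists were chosen with earlier results of these data known. Named were all 10 members, PBK and, in each pathway list, up to 3 genes with the largest absolute log2 fold change among those called, with a mean of at least 1 CPM and groups that did not overlap. Alternatives were DESeq2 1.42.0, other scalings, a scaling that removes trends with expression level (loess, span 0.3), other count filters, limma 3.58.1 on log2(TPM + 1) and log2(TPM + 0.1), where TPM was deposited, a replicate block, other thresholds and leaving out each library. The fits were run on simulated counts with the same dispersion for every gene and no deviating replicate. That setting does not cover replicates as uneven as these. The table also lists 4181 further placements of transcripts, 4 of them of NFKBIB, which were summed with the rest. Promoter sequences are those of RefSeq on GRCh38.p14.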

Additional observations from a re-analysis of the deposited data

Results flagged for a closer look

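Values within each title were checked for a library far from the other 3, by the gap to the nearest library over the range of the group (Dixon's test at its 95% critical value). Of 86 groups checked 6 stood out, where chance gives about 4.3. Among the members, M5 replicate 1 had an NFKB2 share of 30.31% of the subunit TPM, below the 31.5 to 31.75% of the other M5 libraries. It also had an NFKBIA to RELA ratio of 2.309, above 1.948 to 1.967. In M5 replicate 2 NFKBIA made up 91.69% of the TPM of the cytoplasmic inhibitors, below 92.3 to 92.45%. Among the pathway genes, IKBKB stood at 59.99 CPM in M5_O5 replicate 1, below 67.1 to 68.4 CPM in the other M5_O5 libraries. UBE2D3 stood at 299.1 CPM in M5 replicate 2, below 322.6 to 324.4 CPM. IL6 stood at 10.73 CPM in M5 replicate 1, above 6.79 to 7.38 CPM.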

How the results depend on the processing

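The members called lower, 7 in the reported test, were 7 with DESeq2 and with RLE scaling, 3 with library size only, with upper quartile scaling and with the expression level trend removed, 2 with limma on log2(TPM + 1) and on log2(TPM + 0.1), and 0 with the 2-fold threshold. Leaving out each library gave 4 to 7, with 4 without M5 replicate 2 and without M5 replicate 4. No member was called higher in any setting. Pathway genes called higher went from 11 to 17 with library size only and to 6 with the 2-fold threshold. Those called lower went from 26 to 12 with library size only, 15 with upper quartile scaling, 17 with the trend removed, 8 with limma on either TPM scale and 0 with the 2-fold threshold, and leaving out each library gave 18 to 33. All genes called went from 4612 to 398 with the 2-fold threshold, and leaving out each library gave 3578 to 5376. The median log2 fold change of all genes was 0.01 with TMM, 0.13 with library size only, 0.07 with upper quartile scaling and 0.12 and 0.13 on the limma TPM scales. These scalings split all called genes into 3858 higher and 1008 lower (library size only), 3062 and 1525 (upper quartile), 3261 and 761 (log2(TPM + 1)) and 3264 and 768 (log2(TPM + 0.1)).

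Of 190 alternative values of the members, 135 kept their direction and their side of the threshold, 38 lost the call and 17 changed sign. The sign changes were in the 3 members that were not called. NFKBIB became 0.026 with library size only, 0.077 and 0.082 with limma on log2(TPM + 1) and log2(TPM + 0.1), and 0.57 with first placements only, an alternative added after seeing the data. NFKBIE became 0.095, 0.034, 0.095 and 0.10 with library size only, upper quartile scaling and the 2 limma scales, and ranged from -0.094 to 0.026 when each library was left out (0.026 without M5_O5 replicate 1, 0.0003 without M5 replicate 2 and 0.004 without M5 replicate 4). NFKBIZ became 0.10, 0.042, 0.10, 0.11 and 0.11 with library size only, upper quartile scaling, the trend removed and the 2 limma scales, and ranged from -0.038 to 0.0081 when each library was left out. Of 378 values of other named genes 308 kept their call, 68 lost it, and MAP3K7 changed sign to 0.011 and 0.012 on the limma scales. The cause of these changes was not tested.

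The titles give both groups replicate numbers 1 to 4. Deviations of same-numbered libraries correlated at 0.369, 0.279, 0.079 and -0.045, so the numbers were not taken to pair the samples. With the replicate number as a block, 7 members, 12 higher and 33 lower pathway genes and 5255 genes in all were called.

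With 11.26 to 283.6 CPM and at least 176 reads in every library, all members were well detected, but NFKBIB (176 to 223 reads) and NFKBIE (212 to 340 reads) had the largest standard errors. TRAF5, CXCL2, IL23A and PBK, with at most 62 reads in any library, are less certain. Transcript values depend on how reads were divided between overlapping forms.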
